A study of Mus musculus with 16 samples.

Results

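Integrins are paired α and β subunits on the cell surface through which leukocytes hold on to other cells and to extracellular matrix. The transcripts described here are those of 10 subunits used by leukocytes, chosen by gene symbol: Itgal, Itgam, Itgax, Itgb2, Itga4, Itgb1, Itgb7, Itgav, Itgb3 and Itga5. All 10 are among the 13085 genes of the table. They were followed in 16 RNA sequencing libraries of mouse monocytes on the C57BL/6 strain. Cells came from NFAM1+/+ mice or from NFAM1-/- mice, in which CRISPR-Cas9 in zygotes had removed exons 2 and 3 of Nfam1. NFAM1 is an ITAM-bearing surface receptor of myeloid cells. Monocytes were either left unstimulated or given IFN-γ plus MegaCD40L at 1 µg/mL, a multimeric form of the ligand of CD40, and RNA was taken after 6 or 24 h, with 4 libraries for each stimulus and time. At 6 h each set of 4 holds 2 NFAM1+/+ and 2 NFAM1-/- libraries. For 4 of the 8 libraries at 24 h the genotype in the title is not that of the tag, which leaves 1 NFAM1+/+ and 1 NFAM1-/- library per stimulus for a comparison of genotypes. The age of the mice is not given, and the labels do not tie libraries to single animals, so p-values measure the spread between libraries. The paper counts fewer mice than there are libraries here, so some libraries may share a mouse and need not be independent. The cell type tag reads PBL Monocyte, whereas the methods describe enrichment of mouse monocytes from bone marrow.

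The β2 integrins pair the β chain encoded by Itgb2 with a partner α chain: αL (Itgal) makes LFA-1, which binds ICAMs, αM (Itgam) makes Mac-1, which also binds complement C3 fragments and fibrinogen, and αX (Itgax) makes the receptor known as CD11c/CD18. The α4 chain (Itga4) pairs with β1 (Itgb1) in VLA-4, a receptor for VCAM-1 and fibronectin by which monocytes arrest on inflamed endothelium, or with β7 (Itgb7) in the gut homing receptor for MAdCAM-1. The α5 chain (Itga5) with β1 is the classical fibronectin receptor, and αv (Itgav) with β3 (Itgb3) or other β chains binds RGD ligands such as vitronectin and osteopontin. A subunit reaches the surface only with a partner, so transcript levels are not levels of receptor.

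Itga4, Itgam, Itgax and Itgav are the α chains whose transcripts changed most with the stimulus, at either time, among those with a promoter entry, and the 250 bases before the start of each gene are shown. Entries of the RefSeq promoter table, on GRCm38.p6, matched 7 of the 10 symbols: Itgam, Itgax, Itga4, Itgb1, Itgb7, Itgav and Itga5. Capitals mark matches on either strand to TTCNNNGAA (the GAS element), GAGGAA (a PU.1 core), TGANTCA (AP-1) or GGGCGG (Sp1). The windows are chr7:128062390-128062639 for Itgam, chr7:128129300-128129549 for Itgax, chr2:79255176-79255425 for Itga4 and chr2:83724147-83724396 for Itgav, all on the plus strand.
Itgam: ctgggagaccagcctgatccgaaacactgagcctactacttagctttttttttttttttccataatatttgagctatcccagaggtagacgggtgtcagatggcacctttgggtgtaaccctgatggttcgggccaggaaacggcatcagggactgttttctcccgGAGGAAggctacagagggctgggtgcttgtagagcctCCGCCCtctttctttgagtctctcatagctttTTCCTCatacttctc
Itgax: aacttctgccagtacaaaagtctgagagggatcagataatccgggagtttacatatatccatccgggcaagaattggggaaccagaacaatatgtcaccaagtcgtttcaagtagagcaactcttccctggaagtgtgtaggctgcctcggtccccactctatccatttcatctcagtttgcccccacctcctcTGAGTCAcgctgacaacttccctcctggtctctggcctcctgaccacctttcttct
Itga4: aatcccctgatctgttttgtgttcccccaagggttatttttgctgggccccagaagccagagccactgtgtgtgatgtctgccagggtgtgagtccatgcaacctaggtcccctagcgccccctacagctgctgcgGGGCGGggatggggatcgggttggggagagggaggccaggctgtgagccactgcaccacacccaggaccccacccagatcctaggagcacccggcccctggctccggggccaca
Itgav: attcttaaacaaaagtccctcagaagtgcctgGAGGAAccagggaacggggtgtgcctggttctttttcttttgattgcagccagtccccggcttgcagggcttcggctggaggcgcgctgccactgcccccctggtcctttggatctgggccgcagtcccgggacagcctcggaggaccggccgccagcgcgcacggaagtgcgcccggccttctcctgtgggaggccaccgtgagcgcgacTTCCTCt

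The Itgam window held GAGGAA at -84 to -79 and, on the other strand, at -15 to -10, counted from the start of the gene, and GGGCGG on the other strand at -47 to -42. The Itgax window, whose gene lies just downstream of Itgam in the same orientation, held no GAGGAA but 1 TGANTCA at -56 to -50. The Itga4 window held 1 GGGCGG at -114 to -109, and the Itgav window GAGGAA near both ends. No TTCNNNGAA was found in any of the 7 windows. Of all 32851 windows of this length, 7.02% held TTCNNNGAA, 23.3% GAGGAA, 6.75% TGANTCA and 32.7% GGGCGG. These are matches of letters and not sites shown to be bound.

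The libraries held 48295939 to 88514341 reads on the listed genes, and the lowest read count of any of the 10 transcripts was 158, for Itgb3. Values are CPM as deposited, that is reads scaled by a library size that the submitters had adjusted. Library reads divided by that adjusted size gave 0.756 to 0.775 without and 1.24 to 1.32 with the stimulus at 6 h, against 0.776 to 0.788 and 0.970 to 0.997 at 24 h. With each library scaled to its own reads instead, the median log2 change of all genes with the stimulus moved from -0.13 to -0.86 at 6 h and from 0.02 to -0.32 at 24 h, and the share of called genes that were higher fell from 44.5% to 21.1% and from 51.5% to 31.7%. Directions that depend on the scaling are therefore given with each gene. Nfam1 reads, which include exons outside the deletion, gave 432 and 408 CPM in unstimulated NFAM1+/+ libraries and 299 and 321 CPM in unstimulated NFAM1-/- libraries at 6 h. With the stimulus the Nfam1 values of both genotypes lay between 127 and 135 CPM, where they overlapped. All 8 monocyte markers were listed, and their summed level at 6 h was 22292 to 24446 CPM without and 8248 to 10100 CPM with the stimulus, and at 24 h 26237 to 30418 against 8294 to 11475 CPM. Most of that sum was Lyz2, which fell at both times, as did Ccr2, Csf1r, Cd14, Cx3cr1 and Adgre1. Only Ly6c2 and Fcgr1 of the same list rose, at both times. No T or NK cell marker of 7 was listed.

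The first question was whether IFN-γ plus CD40L changed the transcripts of the adhesion receptors, and whether it did so alike early and late. At 6 h the stimulus raised 5 of 10 subunits and lowered 3, in a limma fit over 12306 genes at a Benjamini-Hochberg adjusted p under 0.05. Among all genes tested 34.7% rose and 43.3% fell. Itga4 and Itgal rose and Itgam and Itgb3 fell at least 2-fold, which makes 4 of 10 against 39.2% of all genes. At 24 h 3 rose and 5 fell, against 38.2% and 36.1% of all genes, and 5 changed at least 2-fold (32.7% of all genes). Most genes of the transcriptome thus passed the test as well. The split between directions depended on the scaling: quantile normalization gave 1 higher and 7 lower at each time, and own totals gave 2 higher and 6 lower at 6 h and 1 higher and 7 lower at 24 h. The median change over the members was 0.26 at 6 h and -0.26 at 24 h on the log2 scale, beside -0.13 and 0.02 over all genes.

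**Figure D1:**
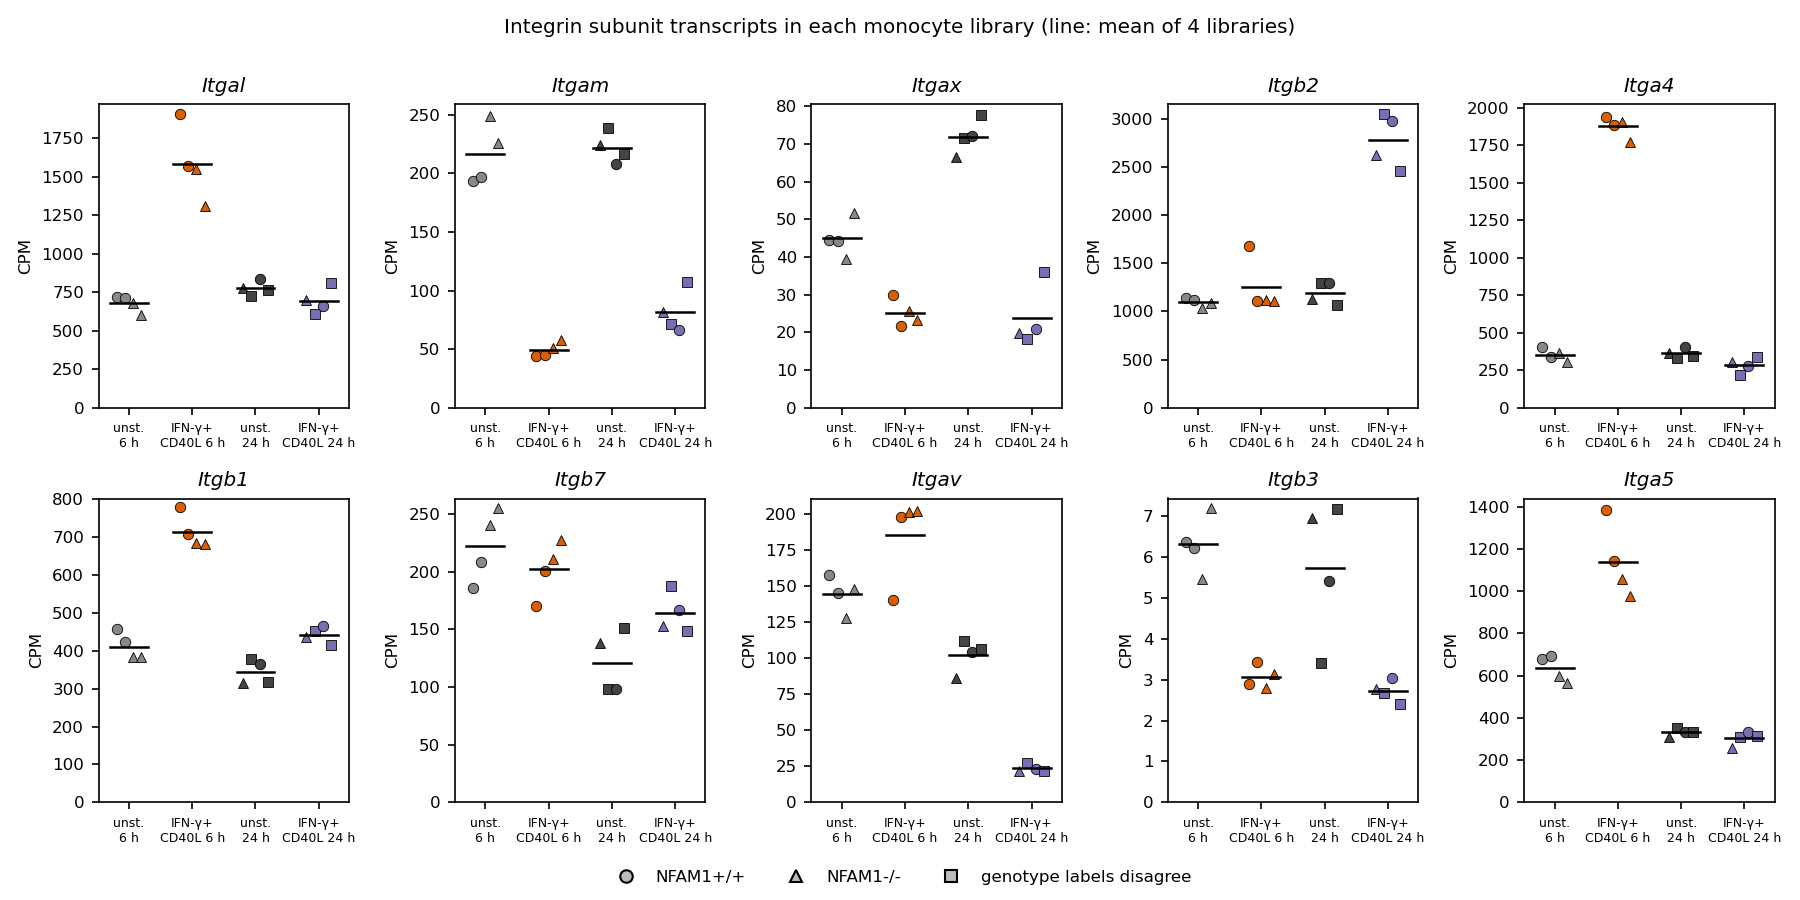
CPM of each subunit (vertical axes, linear from 0) in each of 16 libraries, by stimulus and time, with a line at the mean of 4 libraries and symbols for genotype. Itga4 stands between 1775 and 1941 CPM in the 4 libraries stimulated for 6 h and at no more than 409 CPM in all others, and Itgb2 reaches 2454 CPM or more only after 24 h with the stimulus.

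Itga4 showed the largest rise of the 10, and it was gone by 24 h. Unstimulated libraries at 6 h held 405, 340, 368 and 303 CPM, and libraries stimulated for 6 h held 1941, 1884, 1909 and 1775 CPM. At 24 h the unstimulated libraries held 369, 330, 409 and 345 CPM and the stimulated ones 304, 220, 280 and 341 CPM. The groups at 6 h were far apart and those at 24 h overlapped. The stimulus raised Itga4 by 2.41 ± 0.11 on the log2 scale at 6 h (5.33-fold, SE from the fit, adjusted p = 1.93e-12), and at 24 h Itga4 fell, at -0.36 ± 0.11 (adjusted p = 0.00848). With quantile normalization the rise at 6 h was 1.37 (2.59-fold) and the fall at 24 h -0.80, and with own totals 1.68 (3.21-fold) and -0.69. The difference between the effects at 24 h and 6 h was -2.77 ± 0.16 (adjusted p = 2.94e-10). The gene spans chr2:79255426-79333123 on GRCm38, and its exons overlap those of Cerkl on the other strand by up to 905 bases, in libraries that did not keep strand. Cerkl itself was listed at 0.467 to 1.84 CPM. Of 5 B cell markers 3 were listed, and their sum, nearly all of it Ighm, went from 134 to 153 CPM without to 311 to 371 CPM with the stimulus at 6 h, and from 127 to 198 CPM to 34.5 to 42.4 CPM at 24 h. At 6 h Cd79b went the other way, from 3.44 to 3.90 CPM without to 0.442 to 0.914 CPM with the stimulus, as did Cd79a, from 0.808 to 1.22 CPM to 0.348 to 0.669 CPM. The part of B cells in the change of Itga4 was not tested.

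The chains that pair with α4 moved less. Itgb1, the common partner of α4 and α5, held 383 to 457 CPM unstimulated and 681 to 779 CPM stimulated at 6 h, and 314 to 378 against 415 to 465 CPM at 24 h, without overlap at either time. Its change was 0.80 ± 0.08 at 6 h and 0.37 ± 0.08 at 24 h, although with quantile normalization these turned to -0.19 and -0.08. With own totals they were 0.066 and 0.034 and did not pass (adjusted p = 0.372 and 0.662). Itgb7, the alternative partner, was at 186 to 255 CPM unstimulated and 170 to 227 CPM stimulated at 6 h, with a change of -0.13 ± 0.14 (adjusted p = 0.389). That change was -0.83 with quantile normalization and -0.87 with own totals, both past the threshold, and 0.003 centred on medians. At 24 h Itgb7 was 1.37-fold higher with the stimulus (0.46 ± 0.14, adjusted p = 0.00746), but its libraries overlapped, at 97.8 to 151 and 148 to 188 CPM, and the adjusted p was 0.295 with quantile normalization and 0.446 with own totals. In culture without stimulus Itgb7 fell by 0.89 on the log2 scale from 6 to 24 h (SE 0.14, adjusted p = 3.29e-05).

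Among the α chains of β2, αL and αM went opposite ways at 6 h. Itgal was at 717, 712, 682 and 604 CPM in unstimulated libraries at 6 h and at 1907, 1568, 1548 and 1310 CPM in stimulated ones. The groups did not overlap, and the rise was 1.21 ± 0.10 on the log2 scale (adjusted p = 8.29e-09). It was 0.08 with quantile normalization (adjusted p = 0.455). By 24 h Itgal held 726 to 835 CPM without and 611 to 811 CPM with the stimulus, and the change of -0.17 ± 0.10 did not pass (adjusted p = 0.154). It did pass with quantile normalization (-0.73), with own totals (-0.50) and without stimulated library 58 (-0.24).

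Itgam, the αM chain and a common marker of myeloid cells as CD11b, fell at both times. At 6 h it was at 194, 197, 249 and 226 CPM unstimulated and at 44.0, 44.9, 50.8 and 57.7 CPM stimulated, and at 24 h at 225, 238, 208 and 216 CPM against 82.0, 71.8, 66.5 and 107 CPM. Every stimulated library was below every unstimulated one. The fall was 4.38-fold at 6 h (-2.13 ± 0.13, adjusted p = 5.41e-11) and 2.75-fold at 24 h (-1.46 ± 0.13, adjusted p = 1.19e-08), and between 6 and 24 h with the stimulus Itgam rose 1.64-fold (0.71 ± 0.13, adjusted p = 6.21e-05). The fall passed at both times under all 3 other scalings, and was 7.27-fold at 6 h with own totals. Neutrophil markers, 10 of 10 listed, summed to 72.9 to 229 CPM unstimulated and 88.1 to 361 CPM stimulated at 6 h, and to 544 to 942 against 124 to 212 CPM at 24 h. Ly6g was at most 2.22 CPM in all libraries, and the part of neutrophil RNA in the fall of Itgam at 24 h was not tested. Exons of Itgam share up to 210 bases with Gm49368 on the same strand, and Gm49368 is not among the genes of the table.

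Itgax, the αX chain known as CD11c, fell from 39.5 to 51.7 CPM to 21.8 to 30.0 CPM with the stimulus at 6 h, and from 66.5 to 77.7 CPM to 18.2 to 36.1 CPM at 24 h. The falls were -0.84 ± 0.16 (adjusted p = 0.000147) and -1.65 ± 0.16 (adjusted p = 7.16e-08), and both passed under the 3 other scalings, at -1.58 for 6 h with own totals. Unstimulated cells gained Itgax between 6 and 24 h, by 0.68 ± 0.16 (adjusted p = 0.00163). All 6 dendritic cell markers were listed, with a summed level of 50.4 to 67.0 CPM unstimulated and 34.7 to 51.4 CPM stimulated at 6 h, which overlapped, and 141 to 303 against 34.5 to 40.2 CPM at 24 h. They did not move as 1 set: Flt3 and Cd209a fell at both times, and Siglech fell at 24 h. Zbtb46 and Xcr1 rose at both times and Clec9a at 6 h. At 24 h Xcr1 was low and its libraries overlapped, at 0.298 to 0.708 CPM without and 0.667 to 1.44 CPM with the stimulus. The part of the dendritic cell markers in the change of Itgax was not tested. In these bulk samples fewer cells of a type and less RNA per cell cannot be told apart.

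Itgb2, the β chain shared by αL, αM and αX, was at 1142, 1121, 1037 and 1091 CPM unstimulated at 6 h, and at 1680, 1112, 1116 and 1104 CPM stimulated. A single NFAM1+/+ library accounted for the higher mean, and the change of 0.17 ± 0.12 did not pass (adjusted p = 0.210). It turned to -0.96 with quantile normalization and to -0.56 with own totals, and was 0.30 centred on medians, all past the threshold. At 24 h the unstimulated libraries held 1134, 1292, 1293 and 1065 CPM and the stimulated ones 2627, 3052, 2973 and 2454 CPM. This rise was 2.32-fold (1.21 ± 0.12, adjusted p = 6.94e-08) and passed under the 3 other scalings, at 0.50 (1.42-fold) with quantile normalization and 0.88 (1.84-fold) with own totals. Itgb2 was thus the only one of the 10 to rise at least 2-fold at 24 h as deposited, though not under these 2 scalings, while the transcripts of αM and αX were lower and that of αL did not pass.

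With the stimulus, the αv transcript changed more between times than that of any other member. Itgav was at 158, 145, 128 and 148 CPM unstimulated and at 140, 198, 201 and 202 CPM stimulated at 6 h, with overlap because of 1 stimulated library. At 24 h it was at 86.0, 112, 104 and 106 CPM unstimulated and at 22.0, 27.0, 23.3 and 21.7 CPM stimulated, with no overlap. The change at 6 h, 0.34 ± 0.11 (adjusted p = 0.0110), turned to -0.24 with quantile normalization and -0.39 with own totals. The fall at 24 h was 4.33-fold (-2.12 ± 0.11, adjusted p = 2.25e-11), and from 6 to 24 h with the stimulus Itgav fell 7.81-fold (-2.97 ± 0.11, adjusted p = 6.90e-13). Exons of Itgav overlap those of the noncoding Gm13684 on the other strand by up to 634 bases, and Gm13684 is not among the genes of the table.

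Itgb3, the β chain paired with αv in the vitronectin receptor and with αIIb on platelets, was the lowest of the 10. It held 5.47 to 7.19 CPM unstimulated and 2.79 to 3.44 CPM stimulated at 6 h, and 3.41 to 7.17 against 2.39 to 3.03 CPM at 24 h. Its change was -1.04 ± 0.19 and -1.03 ± 0.19 (adjusted p = 0.0001 and 0.000132), and the 2 effects differed by 0.01 ± 0.27 (adjusted p = 0.967). Both passed under the 3 other scalings, at -1.77 for 6 h with own totals. Of 7 platelet and megakaryocyte markers 4 were listed, with a sum of 2.82 to 4.24 CPM unstimulated and 2.00 to 3.13 CPM stimulated at 6 h, and 6.74 to 8.88 against 1.98 to 3.15 CPM at 24 h. Pf4 was at most 1.38 CPM in all libraries, and the part of these markers in the change of Itgb3 was not tested.

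Itga5, the fibronectin receptor chain, was at 566 to 693 CPM unstimulated and 975 to 1382 CPM stimulated at 6 h. The rise of 0.84 ± 0.10 (adjusted p = 7.85e-07) turned to -0.26 with quantile normalization, and was 0.11 with own totals (adjusted p = 0.284). At 24 h the 2 groups overlapped, at 312 to 354 and 256 to 331 CPM, and the change of -0.15 ± 0.10 did not pass (adjusted p = 0.205), while -0.57 with quantile normalization and -0.48 with own totals did. Itga5 fell with time in both conditions, by 0.92 on the log2 scale without stimulus (SE 0.10) and by 1.91 with it (SE 0.10).

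**Figure D2:**
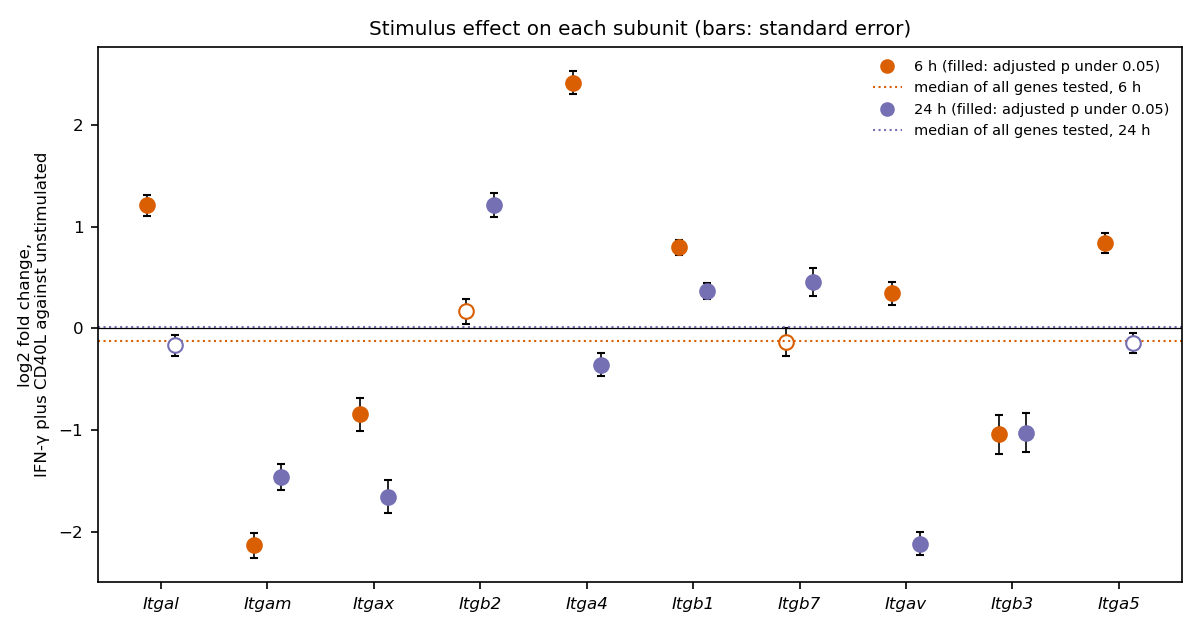
Log2 fold change of each subunit with IFN-γ plus CD40L against unstimulated cells at 6 h and 24 h, with standard errors. Filled points passed an adjusted p of 0.05, and dotted lines mark the median of all 12306 genes. Itga4 goes from 2.41 to -0.36, Itgav from 0.34 to -2.12 and Itgb2 from 0.17 to 1.21.

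Tested directly, the effect of the stimulus differed between 24 h and 6 h for 9 of 10 subunits. It was higher at 24 h for Itgb2, Itgam and Itgb7, and lower for Itga4, Itgav, Itgal, Itga5, Itgax and Itgb1, where among all genes 35.0% were higher and 31.3% lower. The difference for Itgb1 turned to 0.11 with quantile normalization and was -0.03 with own totals, where it did not pass (adjusted p = 0.786). That for Itgax did not pass with own totals (-0.41), nor that for Itgb7 centred on medians (0.45, adjusted p = 0.0576). For 4 of the 10 the difference was at least 2-fold, against 31.6% of all genes. Without stimulus, 1 subunit rose from 6 to 24 h (Itgax) and 4 fell (Itga5, Itgb7, Itgav and Itgb1), against 33.3% and 29.6% of all genes, and none changed 2-fold, as 20.4% of all genes did. With the stimulus 2 rose from 6 to 24 h (Itgb2 and Itgam) and 5 fell (Itgav, Itga4, Itga5, Itgal and Itgb1), against 39.4% and 36.2%, and 5 changed at least 2-fold, against 33.2%. The comparisons of times share libraries with those of the stimulus, so these counts are not independent of each other.

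**Figure D3:**
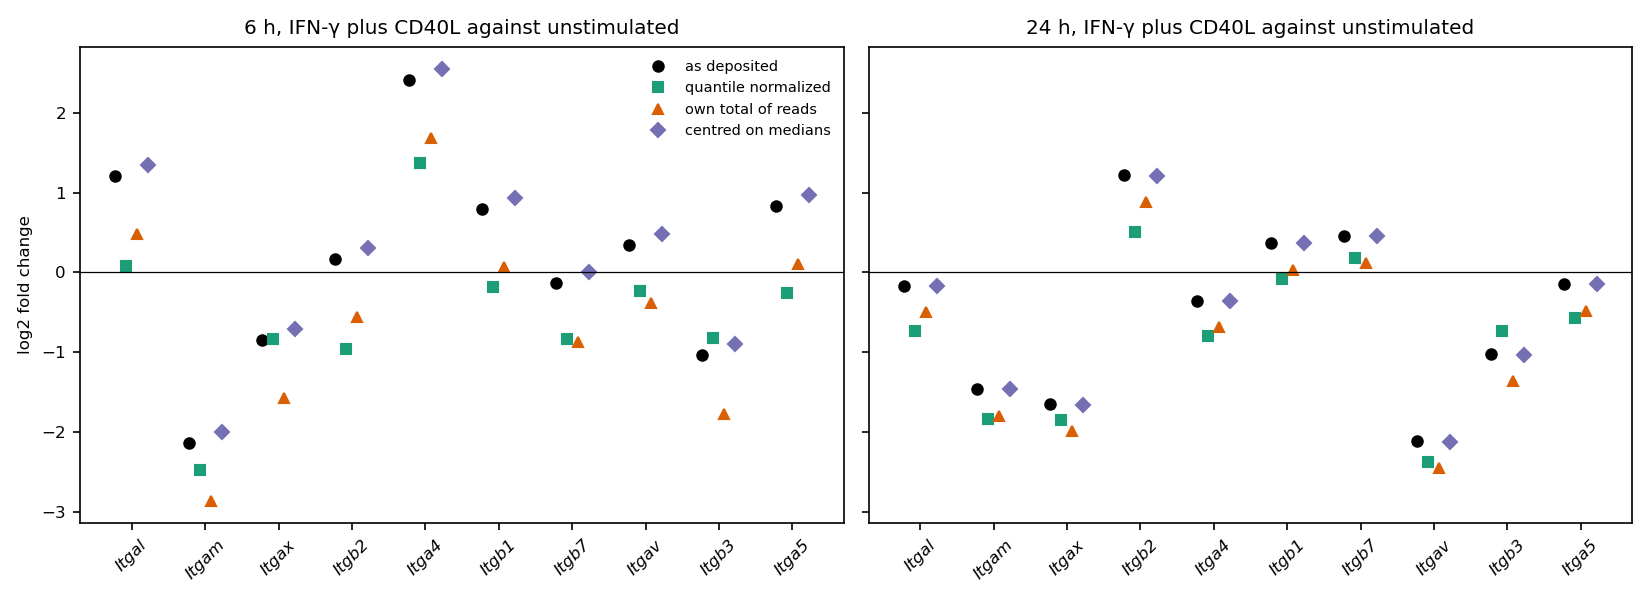
Log2 fold change with the stimulus at 6 h (left) and 24 h (right) for each subunit under the deposited scaling and 3 others. Itgb2 at 6 h lies at 0.17 as deposited and at -0.96 after quantile normalization, while Itgam lies below 0 under every scaling at both times.

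A ratio of 2 subunits within a library does not depend on a factor applied to the whole library, although it does change with quantile normalization, which acts on ranks. The ratio of Itgal to Itgam, both partners of β2, rose from 1.66 ± 0.25 (mean log2 ratio ± SD, n = 4) unstimulated to 5.0 ± 0.39 stimulated at 6 h, and from 1.81 ± 0.16 to 3.10 ± 0.16 at 24 h. The difference at 6 h was 3.34 on the log2 scale, a 10.2-fold change in the balance of reads between these α chains, and 2.55 or 5.85-fold after quantile normalization. Each of these differences gave an exact permutation p of 0.0286, two-sided, which is the smallest that 4 libraries against 4 allow, and 0.0381 after adjustment over the 28 tests of 7 ratios in 4 comparisons. In all, 21 of the 28 tests gave that value.

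The ratio of the β chains Itgb2 and Itgb1 crossed between times. With the stimulus it fell from 1.42 ± 0.08 to 0.79 ± 0.21 at 6 h and rose from 1.80 ± 0.05 to 2.65 ± 0.09 at 24 h, with no overlap of libraries in either case. The ratio of Itga5 to Itga4, which tells α5 from α4 among the partners of β1, fell from 0.84 ± 0.15 to -0.73 ± 0.17 at 6 h, and at 24 h lay at -0.12 ± 0.18 without and 0.09 ± 0.34 with the stimulus (exact permutation p = 0.343, adjusted 0.369). The ratio of Itgax to Itgam rose by 1.29 at 6 h and changed by -0.19 at 24 h (exact permutation p = 0.229, adjusted 0.267). Itgb7 over Itgb1 fell by 0.93 at 6 h and differed by 0.09 at 24 h (exact permutation p = 0.714, adjusted 0.741). Ratios are of reads and were not divided by transcript length.

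**Figure D4:**
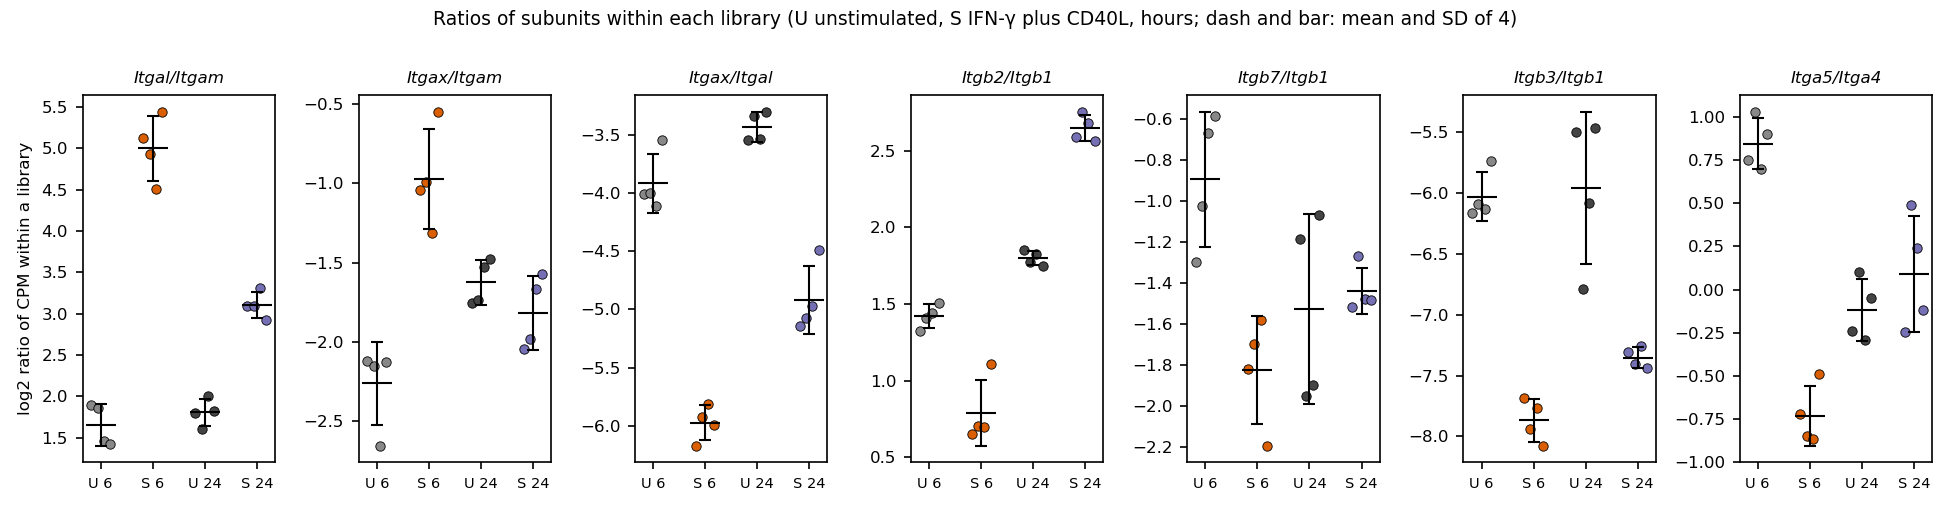
Log2 ratio of CPM of 2 subunits within each library, by stimulus (U unstimulated, S IFN-γ plus CD40L) and hours, with mean and SD of 4 libraries. Itgal over Itgam rises from 1.66 to 5.0 at 6 h, and Itgb2 over Itgb1 falls at 6 h and rises at 24 h.

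The study deleted NFAM1 to ask how it affects monocyte activation, and the same question was put to the integrins. At 6 h none of the 10 subunits differed between NFAM1-/- and NFAM1+/+ libraries at an adjusted p under 0.05, in unstimulated cells (0.157% of 12111 genes did) or with the stimulus (0.0413%). The differences lay between -0.24 and 0.33 on the log2 scale without stimulus and between -0.31 and 0.29 with it, with SEs of 0.08 to 0.21. At an unadjusted p under 0.05 there were 4 members in each, beside 8.74% and 12.6% of all genes. In unstimulated cells 6 members had no overlap between the 2 libraries of each genotype, and 42.3% of all genes had none. With the stimulus 6 had none, and 43.0% of all genes had none.

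Itgam and Itgb7 were higher in NFAM1-/- libraries in both conditions without passing the test. Itgam was at 194 and 197 CPM in NFAM1+/+ against 249 and 226 CPM in NFAM1-/- unstimulated, and at 44.0 and 44.9 against 50.8 and 57.7 CPM stimulated, with adjusted p of 0.360 and 0.329. Itgb7 was at 186 and 208 against 240 and 255 CPM unstimulated, and at 170 and 200 against 211 and 227 CPM stimulated, with adjusted p of 0.325 and 0.359. Itga5, Itgal and Itgb1 were lower in NFAM1-/- in both conditions, and the lowest adjusted p among them was 0.334. The lower values of Itgal, Itga5 and Itgb1 also did not pass.

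The interaction of genotype and stimulus at 6 h passed for none of the 10 (0.0% of all genes), with 0 at an unadjusted p under 0.05, beside 6.99% of all genes. The rise of Itga4 with the stimulus was 2.37 in NFAM1+/+ and 2.46 in NFAM1-/-, and the fall of Itgam -2.13 in each. The results with the stimulus depended on 1 library. Without the stimulated NFAM1+/+ library 10, which leaves library 26 alone in its group and assumes that it varies like the others, 4 members passed with the stimulus: Itgb2 at -0.60, Itga5 at -0.44, Itgav at 0.52 and Itgb7 at 0.37. The interaction then passed for Itgb2 and Itgav. In that fit 9.22% of all 12053 genes passed with the stimulus and 2.26% passed for the interaction. Library 26 is the one that stood apart for Itgb2 and Itgav above.

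At 24 h the comparison of 1 NFAM1-/- with 1 NFAM1+/+ library per stimulus, in a fit of all 16 libraries, gave no member past the threshold, beside 0.0% of 12782 genes without and 0.00782% with the stimulus. At an unadjusted p under 0.05 it gave 0 and 1 members, beside 2.14% and 2.10% of all genes, and SEs ran to 0.45. The spread in that fit comes from the pairs of libraries at 6 h and, at 24 h, only from the pairs of disputed libraries. Each disputed pair holds 1 library of each genotype by either label, so a difference between genotypes would add to the spread. This comparison therefore says little about the genotypes at 24 h. Nfam1 without stimulus at 24 h reached 441 CPM in the NFAM1-/- library, 495 CPM in the NFAM1+/+ library, 463 CPM in the disputed library titled NFAM1+/+, and 391 CPM in that titled NFAM1-/-. With the stimulus it was at 201 and 252 CPM, and at 271 and 223 CPM in the disputed libraries in the same order. No library was assigned to a genotype from these values. Where the 4 disputed libraries are read by their titles, Itgb7 was higher in unstimulated NFAM1-/- cells at 24 h, by 0.56 ± 0.09 (adjusted p = 0.0110), with 138 and 151 CPM against 97.8 and 97.9 CPM, where 122 of 12782 genes passed. With the stimulus no member passed by title, where 269 genes did. Read by the genotype tag, no member passed, and 2 and 3 genes did.

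Most of the other integrin subunits tested fell with the stimulus at 24 h, 9 of 10 as deposited and 7 with quantile normalization. Itga2b, Itga8, Itga9, Itga10, Itgae and Itgb8 were at most 4.49 CPM in all libraries, so part of this count rests on genes near the floor. Of 17 other subunit genes 11 were listed and 10 were tested. With the stimulus 1 rose and 5 fell at 6 h, against 34.7% and 43.3% of all genes. At 24 h 0 rose and 9 fell, against 38.2% and 36.1%, and 8 fell at least 2-fold, where 32.7% of all genes changed so. Itga8 and Itga10 reached 1 CPM only in unstimulated libraries, and Itga9 only in stimulated library 26 and unstimulated libraries 43, 44 and 46. They entered the test through libraries where they were high, so their fall at 24 h is not independent of the filter. The median change of the 10 tested was -0.38 at 6 h and -2.72 at 24 h, and both medians were below 0 under the 3 other scalings. Itgb5, another partner of αv, went from 141 ± 21 to 15.9 ± 4.1 CPM (mean ± SD, n = 4) at 6 h and from 428 ± 49 to 4.08 ± 0.93 CPM at 24 h, a fall of 9.01-fold and of 106-fold. In unstimulated cells Itgb5 rose 3.05-fold between these times. By reads per kilobase of exon, unstimulated cells at 24 h held 120 CPM per kb of Itgb5 and 0.972 of Itgb3, so Itgb5 was the more abundant of these partners of αv.

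Itga6, the laminin receptor chain α6, rose in unstimulated culture from 7.59 ± 2.26 CPM at 6 h to 85.5 ± 17.3 CPM at 24 h, and stood at 0.357 ± 0.061 CPM after 24 h with the stimulus (-7.90 ± 0.22, adjusted p = 3.14e-15). Itga1, the collagen receptor chain α1, went from 76.5 ± 5.1 to 20.9 ± 3.3 CPM at 6 h and from 18.3 ± 8.5 to 0.495 ± 0.092 CPM at 24 h. Itga8 was at 2.71 ± 0.47 CPM unstimulated and 0.090 ± 0.059 CPM stimulated at 24 h. Itgae, whose product pairs with β7 and binds E-cadherin, rose at 6 h (0.603 to 1.71 CPM, adjusted p = 0.00179) and fell at 24 h (1.42 to 0.614 CPM, adjusted p = 0.0431), a fall that did not pass with quantile normalization (adjusted p = 0.180). Itgb8, at most 2.33 CPM in all libraries, fell at 6 h (1.53 to 0.618 CPM, adjusted p = 0.0335) and did not pass at 24 h (0.539 to 1.51 CPM, adjusted p = 0.0739). Its libraries at 6 h overlapped, at 0.686 to 2.33 CPM unstimulated and 0.049 to 0.952 CPM stimulated. The lowest of these values came from 2 reads in stimulated library 12, so the size of this fall rests on few reads.

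Of the remaining subunits, Itga2b, Itga9 and Itga10 fell at 24 h, by 0.75, 3.44 and 1.32 on the log2 scale, and Itga10 also at 6 h. Their levels at 24 h were low. Itga9 was at 0.450 to 1.89 CPM unstimulated and 0.0375 to 0.278 CPM stimulated, the latter from 2 to 18 reads, so the size of its fall rests on few reads. Itga10 was at 1.36 to 1.64 against 0.547 to 0.700 CPM, and Itga2b at 2.75 to 4.49 against 1.40 to 2.43 CPM. The fall of Itga2b did not pass with quantile normalization (-0.39, adjusted p = 0.108). Itgad, at most 1.74 CPM, was not tested. Itgb2l, a gene related to Itgb2, also fell with the stimulus at 24 h, by 1.99 on the log2 scale (adjusted p = 0.00105). In unstimulated cells Itgb2l rose from 1.41 ± 0.61 CPM at 6 h to 9.24 ± 2.37 CPM at 24 h (adjusted p = 6.61e-05). The summed neutrophil markers also rose, from 72.9 to 229 CPM at 6 h to 544 to 942 CPM at 24 h. Their part in the changes of Itgb2l was not tested.

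Of 33 symbols for integrin activation and adhesion machinery 27 were tested. At 6 h 18 rose and 6 fell, against 34.7% and 43.3% of all genes, and at 24 h 14 rose and 9 fell, against 38.2% and 36.1%. The median change of the 27 was 0.40 and 0.30, beside -0.13 and 0.02 over all genes, but it turned to -0.36 and -0.08 with quantile normalization and to -0.33 and -0.03 with own totals. At 6 h 10 then rose and 14 fell with quantile normalization, and 8 rose and 17 fell with own totals. The genes named here kept their direction and passed under each of these scalings. Rasgrp2, the exchange factor CalDAG-GEFI that activates Rap1, fell from 52.9 ± 4.5 to 8.36 ± 1.34 CPM at 6 h and from 38.0 ± 6.1 to 11.6 ± 0.9 CPM at 24 h. Apbb1ip, which encodes the Rap1 effector RIAM that brings talin to integrins, fell 4.47-fold at 6 h (358 ± 18 to 80.3 ± 6.5 CPM) and 1.33-fold at 24 h. Vcl, for vinculin, fell at both times, to 10.0 ± 0.7 CPM at 24 h. Cd47, whose product associates with β3 and β1 integrins, rose 2.74-fold at 6 h and 2.44-fold at 24 h.

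Transcripts for ligands of integrins were read in the same cells, and 13 of 19 were tested. With the stimulus 4 rose and 6 fell at 6 h, against 34.7% and 43.3% of all genes. At 24 h 5 rose and 7 fell, against 38.2% and 36.1%, each of these 12 at least 2-fold, where 32.7% of all genes changed so. The median change of the 13 ligands was -0.31 and -1.22. Fn1, for fibronectin, the ligand of α5β1 and α4β1, fell from 5349 ± 746 to 623 ± 144 CPM at 6 h and from 2552 ± 375 to 3.33 ± 0.50 CPM at 24 h, a fall of 766-fold. Spp1, for osteopontin, stood at 70.5 ± 10.5 CPM unstimulated and at 0.344 ± 0.169 CPM stimulated at 24 h, and Thbs1, for thrombospondin-1, at 1175 ± 221 and 47.5 ± 37.7 CPM.

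Ligands that rose included Vcam1, the counter-receptor of VLA-4, from 2.35 ± 0.79 to 21.0 ± 3.8 CPM at 6 h and from 4.32 ± 1.36 to 41.8 ± 11.5 CPM at 24 h, and Fbn1, for fibrillin-1, from 0.197 ± 0.161 to 85.6 ± 4.7 CPM at 6 h. The log2 change of Fbn1 was 9.11 ± 0.55 at 6 h and 7.30 ± 0.55 at 24 h, from a level in unstimulated cells near the floor of the counts. Without the stimulus Fbn1 reached at most 0.562 CPM, so it entered the test only through stimulated libraries. Its rise, counted among those of the ligands above, is therefore not independent of the filter. The other ligands that passed at 24 h were named after their values were seen. Icam1, a ligand of LFA-1 and Mac-1, rose by 2.75 on the log2 scale at 6 h and 3.38 at 24 h. Another ICAM, Icam2, fell 2.83-fold at 6 h and 5.57-fold at 24 h, and F11r fell 1.95-fold and 3.24-fold. Cdh1 and Tgfb1 fell 4.34-fold and 2.33-fold at 24 h. C3, whose fragments Mac-1 binds, rose 3.94-fold at 6 h and 15.9-fold at 24 h. Jam2, a junctional adhesion molecule, rose 11.9-fold at 24 h (3.57 ± 0.59 on the log2 scale) and did not pass at 6 h (adjusted p = 0.592). The size of its rise is less certain than for Icam1 and C3, whose SEs were 0.14 and 0.10.

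**Figure D5:**
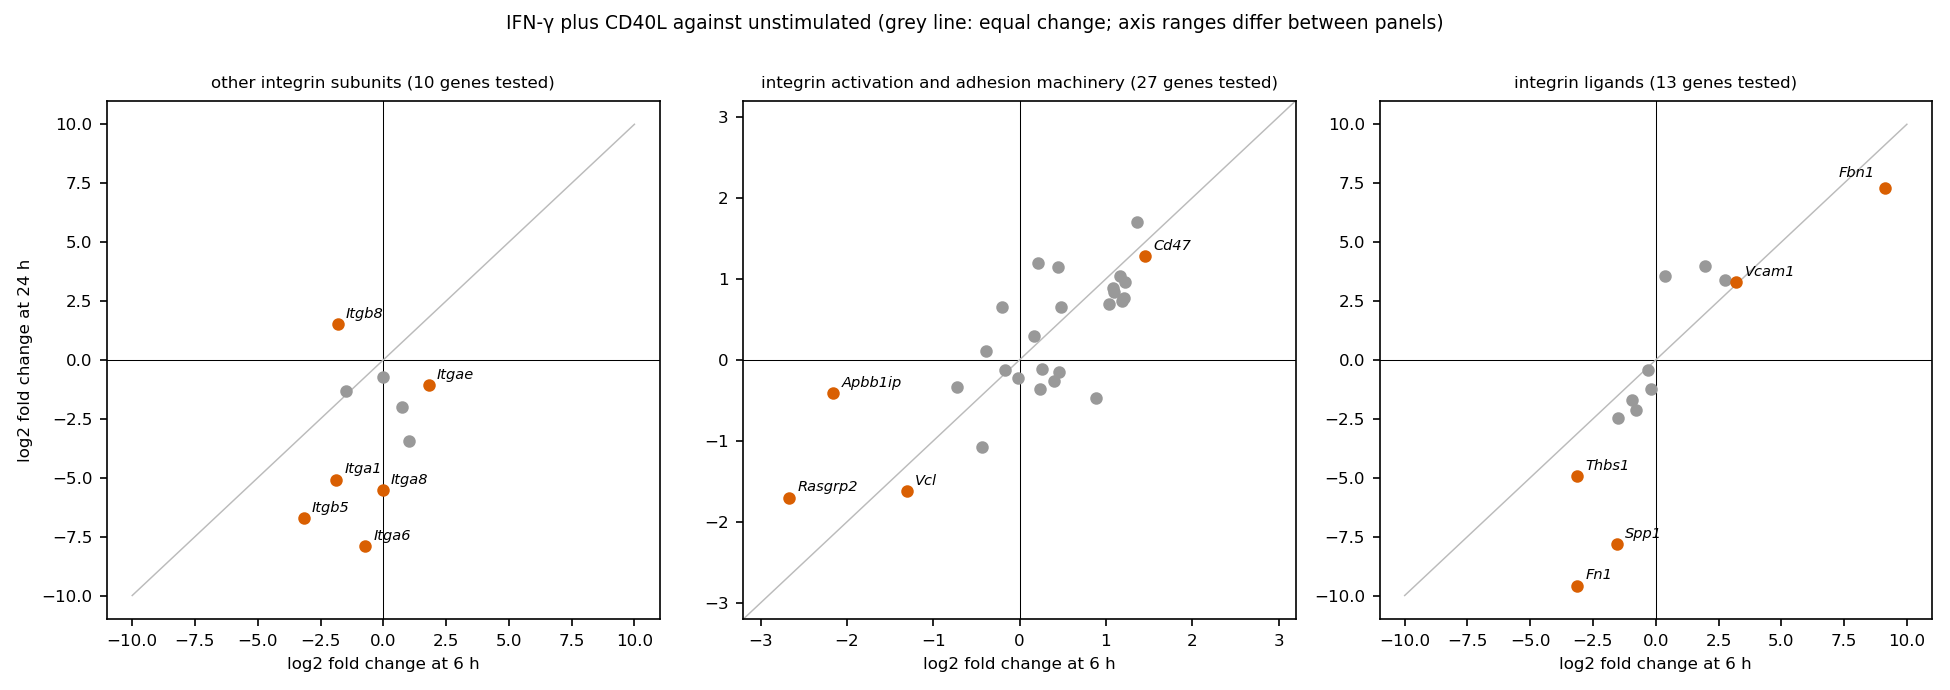
Log2 fold change with IFN-γ plus CD40L at 6 h (horizontal) against 24 h (vertical) for each tested gene of the other integrin subunits, the activation and adhesion machinery and the ligands, with genes of large change in orange and different axis ranges between panels. Itga6 lies at -0.73 and -7.90, and Fn1 at -3.12 and -9.58.

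Per kilobase of exon, Itgb2 was the most abundant of the 10 in every condition, with 360 ± 15, 411 ± 93, 392 ± 38 and 910 ± 93 CPM per kb in unstimulated and stimulated cells at 6 h and the same at 24 h, and Itgb3 the least, at 0.460 to 1.07 CPM per kb. In unstimulated cells at 6 h the order after Itgb2 was Itga5 (129 ± 13), Itgal (103 ± 8), Itgb1 (101 ± 9), Itgb7 (80.3 ± 11.4), Itgam (43.0 ± 5.2), Itga4 (25.3 ± 3.1), Itgav (13.5 ± 1.2) and Itgax (9.38 ± 1.04), in which Itgal and Itgb1 differed by less than their SDs. With the stimulus Itga4 passed Itgb7 and Itgam at 6 h, at 134 ± 5 against 73.0 ± 8.7 and 9.82 ± 1.26 CPM per kb, and fell back to 20.5 ± 3.6 at 24 h. At 24 h with the stimulus Itgb1 (108 ± 5) and Itgal (106 ± 13), and also Itga5 (61.3 ± 6.6) and Itgb7 (59.1 ± 6.5), could not be ordered. The lengths used count every base that is exon in any annotated transcript of a gene. They were 13978 bases for Itga4 and 10744 for Itgav, against 2770 for Itgb7, so the order of genes depends on the annotation.

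Over the 16 libraries, the gene whose log2 values were most like those of each subunit was given by Pearson's r, as a description across libraries that share stimulus and time. It was Skil for Itga4 (r = 0.989), Diaph2 for Itgal (0.988), Krt80 for Itgam (0.996), Kcnk13 for Itgax (0.970), Il20rb for Itgb2 (0.981) and Fbxw11 for Itgb1 (0.983). For Itgb7 it was Fam114a2 (0.910), for Itgav Rpl21 (0.993), for Itgb3 Inf2 (0.951) and for Itga5 Lancl2 (0.990). Among the subunits themselves Itgal and Itga4 were the most alike (0.972). The largest r of Itgb2 with another subunit was 0.03, with Itgb1, so no other member had a course close to that of the common β2 chain.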

How the data were processed

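RNA of cultured mouse monocytes was sequenced as non-stranded poly(A) libraries. The table deposited by the authors holds log2 CPM of 13085 genes for each of 16 libraries. STAR did the alignment, Rsubread the counting and edgeR the normalization, and their notes name GRCm39, with versions not given in the sources used here. Each value equalled log2 of whole reads plus 0.5 over a scaled library size (100.0% whole within 0.01), from which reads and depth were recovered. Dates stand in place of 17 symbols. Genes reaching 1 CPM in 4 or more libraries were fitted with limma 3.58.1 in R 4.3.3, in 4 groups of stimulus and time. The 8 libraries at 6 h were fitted in 4 groups of 2 for genotype, and at 24 h all 16 libraries were fitted in 10 groups. Adjustment was by Benjamini-Hochberg over all genes tested. Named genes were the 10 subunits and, from each other list, up to 4 genes of largest stimulus change past both thresholds at 6 or 24 h, any other listed integrin subunit, and the gene most like each member; a gene that the rule selects is not reported here. Positions and exon lengths are from GENCODE vM21 on GRCm38. Steps were tested on simulated data. Members and lists were chosen with earlier results of these data known. Alternatives were other filters, scalings, offsets and variance priors, voom weights, genotype covariates and leaving out each library. Precision is limited by the number of libraries.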

Additional observations from a re-analysis of the deposited data

Results flagged for a closer look

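A sample stood apart within its group of 4 in 2 of 40 groups examined, where chance gives about 1 in 20. Both are the same library, the stimulated NFAM1+/+ library 26 at 6 h, with Itgb2 at 1680 CPM against 1104 to 1116 CPM in the others and Itgav at 140 CPM against 198 to 202 CPM.

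The effect of the stimulus differed between 24 h and 6 h by a test of the difference for 9 subunits, where among all genes 35.0% were higher and 31.3% lower. The differences for Itgb1, Itgax and Itgb7 did not pass under every scaling, as given above. On the log2 scale, 24 h minus 6 h, the difference was -2.77 for Itga4, -2.46 for Itgav, -1.38 for Itgal, -0.98 for Itga5, -0.81 for Itgax, -0.43 for Itgb1, 0.59 for Itgb7, 0.67 for Itgam and 1.05 for Itgb2.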

How the results depend on the processing

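Of 409 alternative counts of members or ratios past a threshold, 402 stayed within 1.5 times the reported count. With quantile normalization the members changed at least 2-fold numbered 2 at 6 h and 3 at 24 h with the stimulus, and 1 between times without it. Leaving out single libraries gave 0 to 1 in that last comparison, 0 to 4 for genotype with the stimulus at 6 h and 0 to 2 for its interaction, both reaching the higher value without library 10, and the single 2-fold change came without library 46. Read by title, 1 member passed for genotype at 24 h without stimulus.

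Of 1643 alternative values of single members, 1590 kept direction and side of the threshold and 25 reversed. Reversed at 6 h with quantile normalization were Itgb2 (-0.96), Itgb1 (-0.19), Itgav (-0.24) and Itga5 (-0.26), and with own totals Itgb2 (-0.56) and Itgav (-0.39); centred on medians, Itgb7 was at 0.003. At 24 h Itgb1 was at -0.083 with quantile normalization, and so was its difference between times (0.11). Between times with the stimulus, own totals gave 0.25 for Itgax, 0.071 for Itgb7 and 0.20 for Itgb3, and quantile normalization 0.047 for Itgb7. The difference between times of Itgb3, near 0, was -0.13 centred on medians, -0.042 without the disputed libraries, and between -0.215 and 0.141 with single libraries left out, below 0 without library 4, 26, 11, 44 or 57. Between times without stimulus, leaving out single libraries gave values down to -0.008 for Itgam (without library 1 or 2) and -0.031 for Itga4 (without 4 or 45), and -0.316 to 0.041 for Itgb3 (above 0 without 44). The cause of these shifts was not tested, beyond the factors given for the scaling. No paired analysis was possible because the labels do not tie libraries to animals, although some libraries may share a mouse. The comparisons of genotype rest on 2 libraries each at 6 h and 1 each at 24 h, and the low level of Itgb3 limits its precision.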
